A study of Mus musculus with 3 samples.

Results

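The cells described here carry a deposited cell cycle phase of S or G2M but lie outside deposited cluster 4, the cluster in which most cells were called S or G2M. They were chosen by those deposited columns alone, and number 2670 of the 7598 cells and of the 7214 cells outside cluster 4. They were set against the 4544 cells outside cluster 4 that were called G1, matched by cluster and library. The question was whether the call goes with RNA of dividing cells (Mki67, Top2a, histone and Mcm genes) or with another program.

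The cells are CD45+ cells of the mouse thalamus, taken by sorting 4 hours after IL-33 or vehicle was injected i.c.v., and each group is 1 10x Genomics library. The library called WT IL-33 came from Cx3cr1-creER heterozygous mice given the cytokine IL-33. The mice of cKO IL-33 carried 1 Cx3cr1-creER allele and ST2 Flox on both alleles, and were given IL-33 too. Cells of WT vehicle came from Cx3cr1-creER heterozygous mice given vehicle, so all groups carry the Cre allele. ST2 is the IL-33 receptor, encoded by Il1rl1, and Cre driven by Cx3cr1 acts in microglia and other cells that express Cx3cr1. The sources used here do not give the number and age of the mice or whether animals were pooled.

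The libraries held 12127214, 17480958 and 18269042 UMIs (counted RNA molecules) in 2202 cells of WT IL-33, 2687 of cKO IL-33 and 2709 of WT vehicle, in that order. They differ in more than genotype and treatment. The deposited sex call was female in 429 of the 881 called cells of WT IL-33, against 803 of 817 in the cKO IL-33 library and 1 of 972 in WT vehicle cells. Cluster 1 held 1815 of the 2187 WT IL-33 cells outside cluster 4, against 35 cKO IL-33 and 20 WT vehicle cells. With 1 library per group, sex, cluster and treatment cannot be told apart between libraries, and no difference was tested. Intervals are at 95% and cover counting error only. Cells of a library are not replicates, and a few cells can hold many of the UMIs of a gene. Il1rl1, the targeted gene, stood at 6.42 CPM (UMIs of a gene scaled to 1000000 UMIs) in S-called cells, against 5.54 CPM in matched G1 cells, in WT IL-33. It stood at 16.5, against 12.9 CPM in the cKO IL-33 library and at 14.9, against 10.0 CPM in WT vehicle. Where the floxed exons lie relative to these 3' tags was not analysed here, so the level does not check the knockout.

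In S phase, cells copy their DNA with the MCM helicase, the PCNA clamp and DNA ligase 1, and make histone messages in step with DNA synthesis. Towards mitosis they make Mki67 (a coat of mitotic chromosomes), Top2a (a topoisomerase that untangles DNA), cyclins and kinesins. E2F factors switch on many S phase genes, and promoters of mitotic genes often hold a cell cycle homology region (CHR). A phase score sets the mean of a gene list against control genes of like level, so it has a value in every cell, dividing or not. Microglia, the resident macrophages of the brain, renew slowly in the adult brain and divide more after injury.

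Promoters of 3 genes named in the results are shown, each with matches to the letters searched. Mcm3 is a replication gene that neither version of the Seurat phase lists holds, Mcm6 is a gene of the S list, and Mki67 is a gene of the G2M list. They are RefSeq sequences of GRCm38.p6, from 250 bases before to 50 bases after the start, on the minus strand at chr1:20820263-20820562, chr1:128359656-128359955 and chr7:135716330-135716629. Capitals mark all matches to E2F letters in Mcm3 and Mcm6, with overlapping matches run together, and CHR letters in Mki67.
Mcm3: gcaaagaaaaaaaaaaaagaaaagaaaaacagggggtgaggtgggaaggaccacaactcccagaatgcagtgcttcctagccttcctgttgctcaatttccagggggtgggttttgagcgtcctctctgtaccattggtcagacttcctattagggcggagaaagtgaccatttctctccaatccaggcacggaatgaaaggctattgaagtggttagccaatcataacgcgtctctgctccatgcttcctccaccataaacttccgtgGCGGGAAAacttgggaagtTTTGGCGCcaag
Mcm6: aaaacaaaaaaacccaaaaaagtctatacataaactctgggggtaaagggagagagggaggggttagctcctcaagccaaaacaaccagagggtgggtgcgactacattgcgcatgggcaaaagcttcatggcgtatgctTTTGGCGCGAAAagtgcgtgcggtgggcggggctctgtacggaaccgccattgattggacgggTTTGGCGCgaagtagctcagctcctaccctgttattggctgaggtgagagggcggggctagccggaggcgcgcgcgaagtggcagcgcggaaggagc
Mki67: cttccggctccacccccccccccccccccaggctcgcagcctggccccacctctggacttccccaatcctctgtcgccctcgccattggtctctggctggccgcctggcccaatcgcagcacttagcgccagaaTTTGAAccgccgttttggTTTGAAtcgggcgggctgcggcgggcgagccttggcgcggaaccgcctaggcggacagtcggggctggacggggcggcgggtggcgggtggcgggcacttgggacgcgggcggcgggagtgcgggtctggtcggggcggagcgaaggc
The E2F letters searched were TTTCGCGC, TTTGGCGC and TTTCCCGC, and the CHR letters TTTGAA, on both strands. E2F letters were in 12 of the 31 S list promoters found in the RefSeq table (38.7%) and in 6 of 18 of replication genes outside the phase lists (33.3%), against 1.91% of all 27025 promoters. CHR letters were in 32 of 47 G2M list promoters (68.1%) and in 14 of 19 of mitotic genes outside the lists (73.7%), against 18.1% of all. A match describes these letters and is not a site. Among promoters examined but not shown, Dtl of the S list held 1 E2F match and Hmgb2 of the G2M list held 2 CHR matches. Nasp of the S list and the first of 3 promoters of Lig1 (DNA ligase 1) held no E2F match.

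Calls of S or G2M were frequent in every cluster outside cluster 4. WT IL-33 held 612 S and 269 G2M cells among 2187 outside cluster 4, or 40.3% called (interval 38.2 to 42.4). In cKO IL-33, 597 S and 220 G2M cells among 2565 made 31.9% (30.1 to 33.7). WT vehicle had 710 S and 262 G2M cells among 2462, or 39.5% (37.5 to 41.4). The difference between libraries was not tested, since the intervals hold no variation between animals. Over the libraries, the called share lay between 31.2% in cluster 2 and 40.4% in cluster 1, against 90.1% (346 of 384) in cluster 4.

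Most of the calls lay close to the cut. A cell was called S or G2M exactly when the larger of its 2 deposited scores was above 0. Of the 1919 S-called cells, 1031 (53.7%) had an S score of 0.02 or less, against 9 of 123 (7.32%) in cluster 4. Only 81 (4.22%) scored over 0.1, against 82.9% of the 123 in cluster 4. These high scores were uneven between libraries: 1 of 612 S-called cells in WT IL-33, 16 of 597 in the cKO IL-33 library and 64 of 710 in WT vehicle. Of the 751 G2M-called cells, 506 (67.4%) scored 0.02 or less and 38 (5.06%) over 0.05, of which 11 were in WT IL-33, 9 in the cKO IL-33 library and 18 in WT vehicle. In cluster 4, 209 of 223 G2M-called cells (93.7%) scored over 0.05. The score thus ran on through the cut without a gap, and a call outside cluster 4 is a range of scores.

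**Figure D1:**
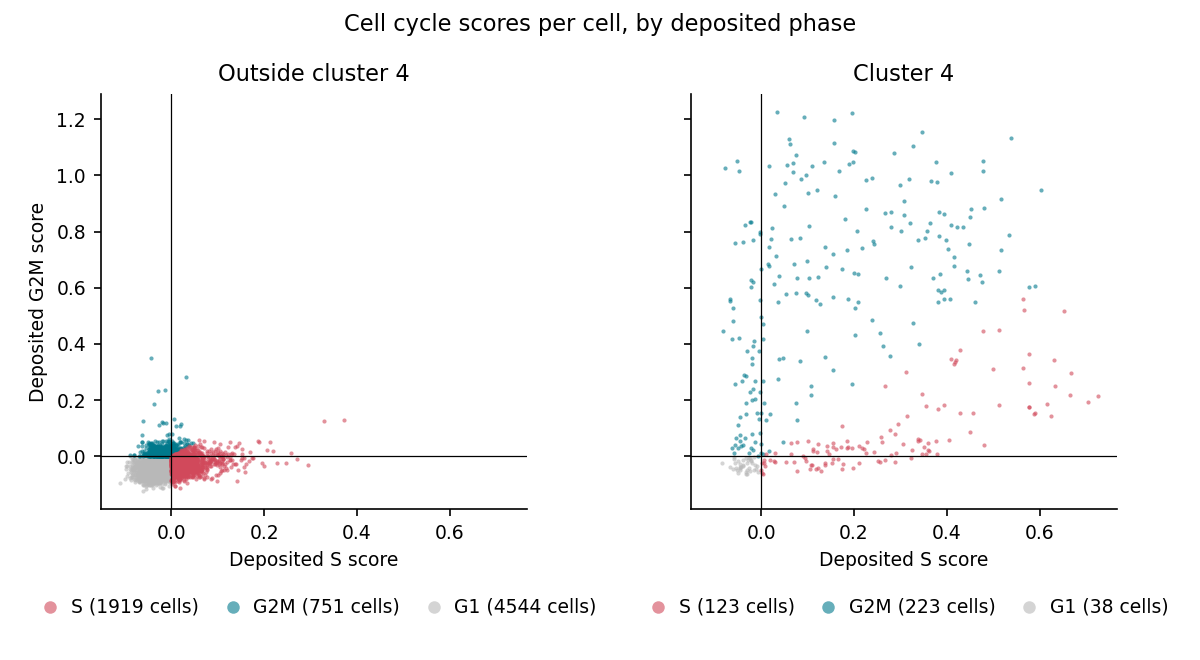
Each point is 1 cell at its deposited S score (x) and G2M score (y, both without units), coloured by deposited phase, for cells outside and in cluster 4. The 2670 called cells outside cluster 4 crowd just above the cut at 0, and the 346 called cells of cluster 4 spread far above it.

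A call outside cluster 4 rested on few molecules. The S list of Seurat (updated version, 43 genes in the table) gave a median of 5 UMIs in S-called cells, against 2 in G1 cells, while S-called cells of cluster 4 had 26. The G2M list (54 genes) gave 7 UMIs in G2M-called cells, against 4 in G1 cells, while G2M-called cells of cluster 4 had 132. Cells of cluster 4 were deeper, with a median of 8055 UMIs in G2M-called cells, against 4406 outside it. At 2000 UMIs a cell, the S list medians were 2 in S-called, 1 in G1 and 7 in cluster 4 cells. Those of the G2M list were 3 in G2M-called, 1 in G1 and 31 in cluster 4 cells. Lists of this kind define the call, so the differences describe the choice of the cells. Scores recomputed outside cluster 4 correlated with the deposited S scores at r = 0.893 with the updated list and 0.948 with the original list, over 7214 cells that share libraries. Median UMIs per cell were 3707 in S, 3705 in G2M and 4071 in G1 cells of WT IL-33, then 4895, 4535 and 5272.5 in the cKO IL-33 library, and 5593.5, 4923 and 5396 in WT vehicle. Called cells were shallower than G1 cells apart from S-called cells of WT vehicle. When each cell was thinned to 2000 UMIs and scored anew, 61.3% of the S calls and 59.4% of the G2M calls came out the same, against 86.2% and 94.6% in cluster 4. Of the G1 calls outside cluster 4, 68.7% came out the same. Scoring anew without thinning kept 82.8% of the S calls and 71.6% of the G2M calls with the same updated list. Not all of the lost calls were thus due to thinning.

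In each list, the 5 leading genes gave much of the excess of UMIs over matched G1. In S-called cells Casp8ap2, Pcna, Slbp, Nasp and Rfc2 gave 41.3% of the S list UMIs in excess of matched G1, against 20.1% in cluster 4. Casp8ap2 takes part in histone gene expression, Slbp binds the stem-loop of histone messages, Nasp is a histone chaperone and Rfc2 helps load PCNA. In G2M-called cells Hmgb2, Anp32e, Ctcf, Hjurp and Tmpo gave 51.1% of the excess, against 19.6% in cluster 4. Ctcf, which organises chromatin loops in dividing and resting cells alike, gave 9.91% of that excess, against 1.03% in cluster 4. Hmgb2, a chromatin protein of the HMG-box family, gave 15.5%, against 11.0%. All these genes were picked for the largest excess outside cluster 4, so lower shares in cluster 4 were partly built in. In cluster 4 the gene with the largest share of each list was among these, and the next was not. The largest shares of cluster 4 were those of Pcna (7.38%) and Atad2 (7.16%) in the S list. In the G2M list they were those of Hmgb2 (11.0%) and Mki67 (9.63%). The comparison thus does not show that the call rested on fewer genes outside cluster 4 than in it. A share of UMIs is also not a share of the call, since abundant genes weigh more in it. Outside cluster 4, Dtl and Mcm6 correlated most with the deposited S score (r = 0.314 and 0.292), yet gave 1.17% and 3.60% of the excess.

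To look beyond the phase lists, 22 replication genes and 28 mitotic genes in neither version of the Seurat lists were taken. The authors' own lists are not known, so it is an assumption that the calls did not read these genes. In S-called cells of WT IL-33 the replication genes summed to 236 CPM, against 220 CPM in matched G1 cells, a ratio of 1.07 (0.979 to 1.17). In cKO IL-33 they summed to 383, against 293 CPM, a ratio of 1.31 (1.23 to 1.39), and in WT vehicle to 484, against 298 CPM, a ratio of 1.63 (1.54 to 1.72). Only the WT IL-33 interval held 1. The S list itself had ratios of 2.21, 2.48 and 2.91 in the same order. Of the replication genes at 10 CPM or more in either phase, those 1.5-fold or more higher in S-called cells were 0 of 5 in WT IL-33, beside 1.12% of all genes, 3 of 8 in the cKO IL-33 library, beside 0.78%, and 6 of 9 in WT vehicle, beside 1.08%. A gene that reached 10 CPM only in called cells had to be higher there, so these and later counts and medians over genes at 10 CPM are descriptions.

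Mcm3, a subunit of the MCM helicase, followed the same order. It stood at 18.0, against 23.3 CPM in S-called and matched G1 cells of WT IL-33 (ratio 0.770, 0.559 to 1.05). It stood at 58.1, against 30.7 CPM in the cKO IL-33 library (1.89, 1.58 to 2.25) and at 85.5, against 31.0 CPM in WT vehicle (2.75, 2.36 to 3.21). S-called cells of WT IL-33 therefore had no more Mcm3 than their G1 cells, in contrast to the other libraries. Lig1, which joins newly made DNA strands, had ratios of 1.26 (0.688 to 2.25) in WT IL-33, 2.33 (1.57 to 3.43) in the cKO IL-33 library and 2.51 (1.92 to 3.28) in WT vehicle. Dnmt1, which copies DNA methylation onto new strands, had 0.876 (0.564 to 1.33), 1.29 (0.986 to 1.67) and 1.59 (1.29 to 1.97) in that order. Dek, a chromatin protein, differed less, at 1.15 (1.01 to 1.30), 1.14 (1.04 to 1.25) and 1.28 (1.17 to 1.39). Lig1 and Dnmt1 were named after their values were seen.

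The other Mcm genes stand in the original list (Mcm2), the updated list (Mcm7) or both (Mcm4, Mcm5 and Mcm6). Mcm6 stood at 17.6, against 9.34 CPM in WT IL-33, at 23.6, against 6.84 CPM in the cKO IL-33 library and at 41.8, against 5.80 CPM in WT vehicle. Its ratios were 1.89 (1.30 to 2.72), 3.45 (2.49 to 4.77) and 7.21 (5.34 to 9.88). Mcm2, Mcm4 and Mcm5 had pooled ratios of 4.73, 4.85 and 5.07. Mcm7 had 1.31 (0.849 to 1.98) in WT IL-33, 1.30 (1.02 to 1.64) in the cKO IL-33 library and 1.75 (1.37 to 2.23) in WT vehicle. Pcna stood at 101, against 39.7 CPM in S-called and G1 cells of WT IL-33 (2.54), at 74.3, against 27.2 CPM in those of cKO IL-33 (2.73) and at 84.0, against 28.3 CPM in those of WT vehicle (2.97). Pcna, a gene of both list versions, was thus about as much higher in WT IL-33 as elsewhere, while Mcm3 was not.

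Histone genes as a group were close to G1 in S-called cells. The 63 in the table summed to 166, against 148 CPM in WT IL-33 (ratio 1.12, 1.01 to 1.25), to 345, against 337 CPM in the cKO IL-33 library (1.02, 0.960 to 1.09) and to 457, against 457 CPM in WT vehicle (0.998, 0.948 to 1.05). S-called cells of cluster 4 were also near their G1 cells, at 983, against 1004 CPM. Histone genes are close copies that can split reads, and 3' capture by poly(A) tails misses most replication-dependent histone messages, so single members are uncertain. Hist1h1b, a replication-dependent linker histone, had 0 UMIs in S-called cells of WT IL-33 and 3 in its G1 cells. Its ratio was 1.04 (0.445 to 2.22) in the cKO IL-33 library and 1.79 (1.20 to 2.67) in WT vehicle. Hist1h1c, a linker histone also made outside S phase, was at 0.883 (0.796 to 0.979) over the libraries. In S-called cells of cluster 4, Hist1h1b stood at 227, against 5.67 CPM in G1 cells (1 UMI), and Hist1h1c at 62.5, against 264 CPM. The level histone sum of cluster 4 thus held members that went opposite ways, so a level sum does not show that no histone gene rose.

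Mki67 and Top2a were found in few called cells. Cells with a UMI of either gene were 45 of 881 called and 41 of 1306 G1 cells in WT IL-33, 25 of 817 and 14 of 1748 in the cKO IL-33 library, and 48 of 972 and 20 of 1490 in WT vehicle. In cluster 4 they were 269 of 346 called cells and 2 of 38 G1 cells. In the S-called cells, Mki67 had 35 UMIs in 23 of 1919, a ratio of 1.78 to G1 (1.12 to 2.82), and Top2a had 51 UMIs there, a ratio of 2.83 (1.85 to 4.36). Most called cells thus had no UMI of either gene at this depth.

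In G2M-called cells, which the G2M list chose partly by these genes, Mki67 had 76 UMIs in 34 of 751 cells. It stood at 14.8, against 4.02 CPM in G2M-called and matched G1 cells of WT IL-33 (3.68, 1.98 to 6.70). It stood at 14.8, against 0.831 CPM in the cKO IL-33 library (17.9, 7.47 to 46.0) and at 23.8, against 0.963 CPM in WT vehicle (24.7, 11.7 to 58.1). WT IL-33 had the lowest of these ratios and the highest G1 level. Top2a had ratios of 4.78, 23.2 and 13.7 in the same order.

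Mitotic genes in neither version of the Seurat lists were higher in G2M-called cells of each library. They summed to 123, against 97.7 CPM in WT IL-33 (1.26, 1.06 to 1.49), to 184, against 126 CPM in the cKO IL-33 library (1.47, 1.26 to 1.70) and to 218, against 120 CPM in WT vehicle (1.81, 1.60 to 2.04). Without cells that held a UMI of Mki67 or Top2a, the ratio over the libraries was 1.01, against 1.55 with them. Mki67 and Top2a are genes of the Seurat G2M list, and 57 G2M-called cells were left out by them. A lower ratio was thus built into this choice of cells. At 10 CPM or more, 0 of 5 mitotic genes were 1.5-fold or more higher in WT IL-33, beside 2.06% of all genes, 1 of 5 in the cKO IL-33 library, beside 2.71%, and 2 of 5 in WT vehicle, beside 2.65%.

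Stmn1, which destabilises microtubules, stood at 34.0, against 24.0 CPM in G2M-called and matched G1 cells of WT IL-33 (1.42, 1.0 to 1.97). Its ratio was 1.36 (1.05 to 1.74) in the cKO IL-33 library and 1.89 (1.53 to 2.32) in WT vehicle. Ccnb1, cyclin B1, had 5 UMIs in the 751 G2M-called cells and 21 in the 4544 G1 cells. Histones summed to a ratio of 0.937 (0.798 to 1.09) in WT IL-33, 1.17 (1.06 to 1.29) in the cKO IL-33 library and 1.23 (1.15 to 1.33) in WT vehicle. Hist1h1b had 0 UMIs in WT IL-33, and ratios of 3.39 (1.39 to 7.49) in the cKO IL-33 library and 4.00 (2.59 to 6.12) in WT vehicle. Replication genes outside the lists were near G1, at 1.07 over the libraries (1.01 to 1.14).

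**Figure D2:**
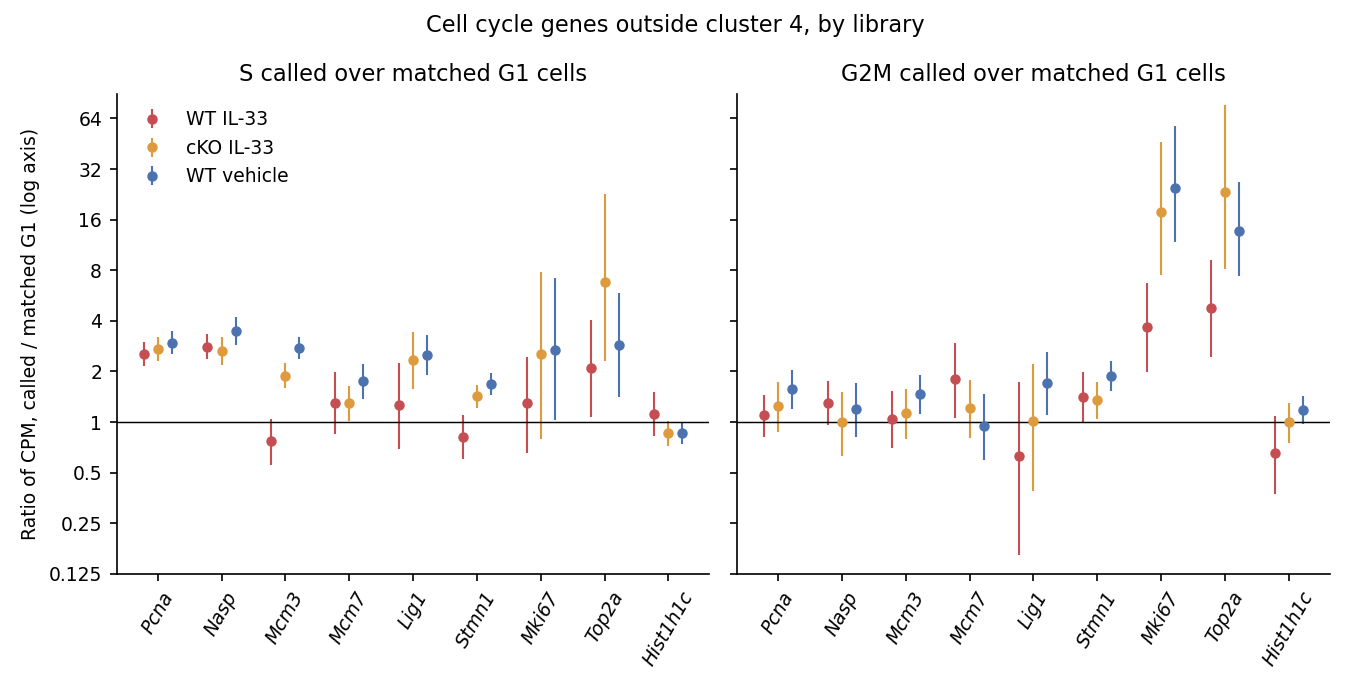
Points are ratios of CPM in called over matched G1 cells outside cluster 4 (log axis) by gene and library, with 95% intervals for counting error, for S-called and for G2M-called cells. Pcna has like ratios in the 3 libraries among S-called cells (2.54, 2.73 and 2.97), Mcm3 differs between them (0.770, 1.89 and 2.75), and Mki67 is highest in G2M-called cells of WT vehicle (24.7).

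Replication genes were highest in the few S-called cells with high scores. In the 81 cells over 0.1, replication genes summed to 1001, against 303 CPM in matched G1 cells (3.30, 3.03 to 3.59), with Mcm3 at 215, against 32 CPM and Lig1 at 64.6, against 9.07 CPM. The sum is over all 22 listed genes. Wee1, a kinase that holds back mitosis, had 20 UMIs and stood at 28.7, against 1.20 CPM (23.9, 12 to 48.1), and was named after its values were seen. The histone sum was 0.980 of that in G1 (0.869 to 1.1). These cells had a median of 7048 UMIs. In the 1031 S-called cells at 0.02 or less, the replication sum was 301, against 270 CPM (1.11, 1.06 to 1.17), and the mitotic sum was 1.08 of that in G1 (0.998 to 1.17). Without the 81 cells, the replication ratio of all other S-called cells was 1.26, against 1.40 with them.

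Mitotic genes were likewise highest in the 38 G2M-called cells over 0.05. Mitotic genes summed to 818, against 118 CPM in matched G1 cells (6.91, 6.03 to 7.90), and histones to 854, against 373 CPM (2.29, 2.01 to 2.60). The mitotic sum is over all 28 listed genes. Without these cells, the mitotic ratio of all other G2M-called cells was 1.11, against 1.55 with them. Mki67 stood at 149, against 1.41 CPM in matched G1 cells, from 45 UMIs in 13 of the 38 cells. Border macrophage markers summed to 338, against 72.5 CPM in these and in matched G1 cells, with all 6 markers present and 27 UMIs of Pf4 in 1 cell. Their part in the result was not tested. In the 506 G2M-called cells at 0.02 or less, the mitotic sum was 0.995 of that in G1 (0.884 to 1.12), the histone sum 1.0 (0.934 to 1.07) and the replication sum 1.01 (0.936 to 1.09).

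Single cells were also compared at equal depth. With each cell thinned to 2000 UMIs, cells with 2 or more UMIs of the 50 replication and mitotic genes outside the lists made up 14.5% of S, 13% of G2M and 13.2% of G1 cells in WT IL-33. The shares were 24.5%, 25% and 20.7% in the cKO IL-33 library and 34.2%, 19.8% and 20.1% in WT vehicle. WT vehicle was thus highest among S-called cells, and the cKO IL-33 library among G2M-called and G1 cells. Among these, the interval of S-called cells of WT vehicle (30.7 to 37.8) alone lay clear of that of its G1 cells (18.1 to 22.2). Without thinning, S, G2M and G1 cells had 42.3%, 38.7% and 46.5% in WT IL-33, 66.5%, 57.3% and 65.0% in the cKO IL-33 library, and 75.4%, 55.7% and 65.2% in WT vehicle.

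Across S scores, the share over the libraries was 19.6% at 0.02 or less, 22.9% up to 0.05, 37.5% up to 0.1 and 77.8% (63 of 81) above it. The mix of libraries changed along these ranges, and WT vehicle gave 64 of the 81 cells. In WT IL-33 the shares up to 0.1 were 13.9%, 14.5% and 18.4% (7.74 to 34.3), and 1 cell lay above it. The shares in the same ranges were 22.1%, 22.8%, 32.8% and 62.5% in the cKO IL-33 library. They were 23.3%, 30.8%, 47.9% and 81.25% in WT vehicle. In cluster 4 the share over the libraries was 89.4% of S-called, 94.6% of G2M-called and 18.4% of G1 cells. Just inside the cut, S-called cells at 0.01 or less had 19.9% and G2M-called cells 16.7%, against 18.6% of G1 cells whose larger score was within 0.01 below the cut. These neighbours of the cut did not differ beyond their intervals. G1 cells held such UMIs too, so 2 UMIs do not mark a dividing cell, and the part of free RNA was not tested.

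**Figure D3:**
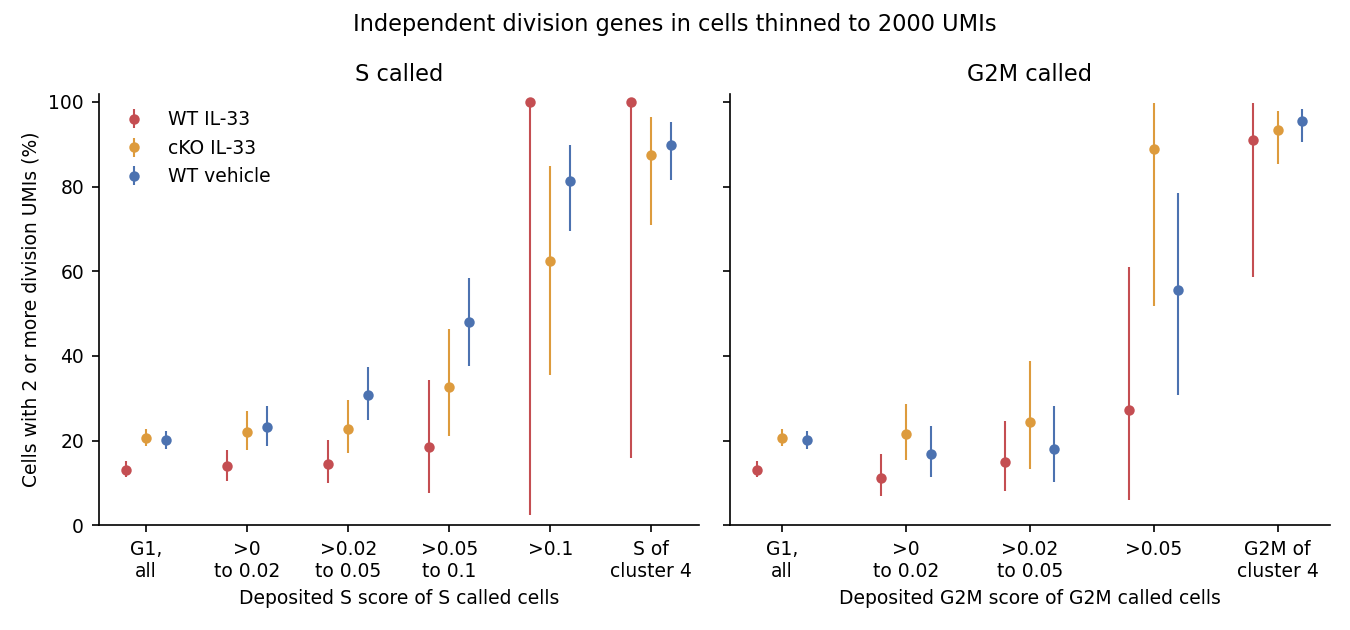
Points are the share of cells (%) with 2 or more UMIs of 50 division genes outside the phase lists after thinning to 2000 UMIs, with exact 95% intervals, by library and by phase and score. The share over the libraries is near that of G1 cells (18.3%) at low scores and 77.8% in the 81 S-called cells over 0.1, where WT IL-33 has 1 cell and cKO IL-33 has 16.

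By cluster, the replication ratio of S-called cells was, among clusters with at least 20 cells of each phase, highest in cluster 5, at 705, against 330 CPM in the cKO IL-33 library (2.14, 1.68 to 2.73) with 28 called cells. In cluster 5 of WT vehicle it was 734, against 358 CPM (2.05, 1.64 to 2.57) with 31 called cells. Clusters 0, 2 and 3 had 1.17, 1.33 and 1.48 in the cKO IL-33 library and 1.62, 1.55 and 1.58 in WT vehicle. In WT IL-33, the 508 S-called cells of cluster 1 had 218, against 211 CPM (1.03, 0.935 to 1.14). Its smaller clusters 0, 2 and 3 had 1.09 (0.75 to 1.57), 1.05 (0.653 to 1.64) and 1.14 (0.703 to 1.82), on 20 to 44 called cells each. Those intervals reach the ratios of the same cluster in the other libraries, apart from cluster 0, whose interval ends below the ratio of WT vehicle.

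Outside the cell cycle genes, called and G1 cells were close. The median log2 ratio over the 8428 genes at 10 CPM or more was 0.00 in S-called cells, with 0.427% of them 1.5-fold or more higher and 0.0356% lower. It was 1.45 for the S list, 0.33 for the replication genes outside it (2 of 7 higher), -0.07 for NF-kB targets, 0.03 for immediate early genes, 0.06 for heat shock genes and 0.00 for homeostatic microglia genes. None of the measured genes of the last 4 lists was 1.5-fold higher or lower, nor any measured gene of the ribosomal protein, mitochondrially encoded, oxidative phosphorylation, proteasome, glycolysis, splicing or ribosome biogenesis lists. In each of the chemokine (16 measured), interferon (13) and disease-associated microglia (11) lists, 1 gene was 1.5-fold or more higher. In G2M-called cells 0.497% of 8459 genes were 1.5-fold or more higher, and the medians were 1.20 for the G2M list, 0.38 for the mitotic genes outside it (1 of 5 higher), 0.09 for NF-kB targets and -0.01 for homeostatic microglia genes. Ccnd1, cyclin D1, had ratios of 1.07, 1.01 and 1.25 in S-called cells of WT IL-33, then cKO IL-33 and then WT vehicle. Cdkn1a, the Cdk inhibitor p21, had 1.0, 0.814 and 0.777.

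**Figure D4:**
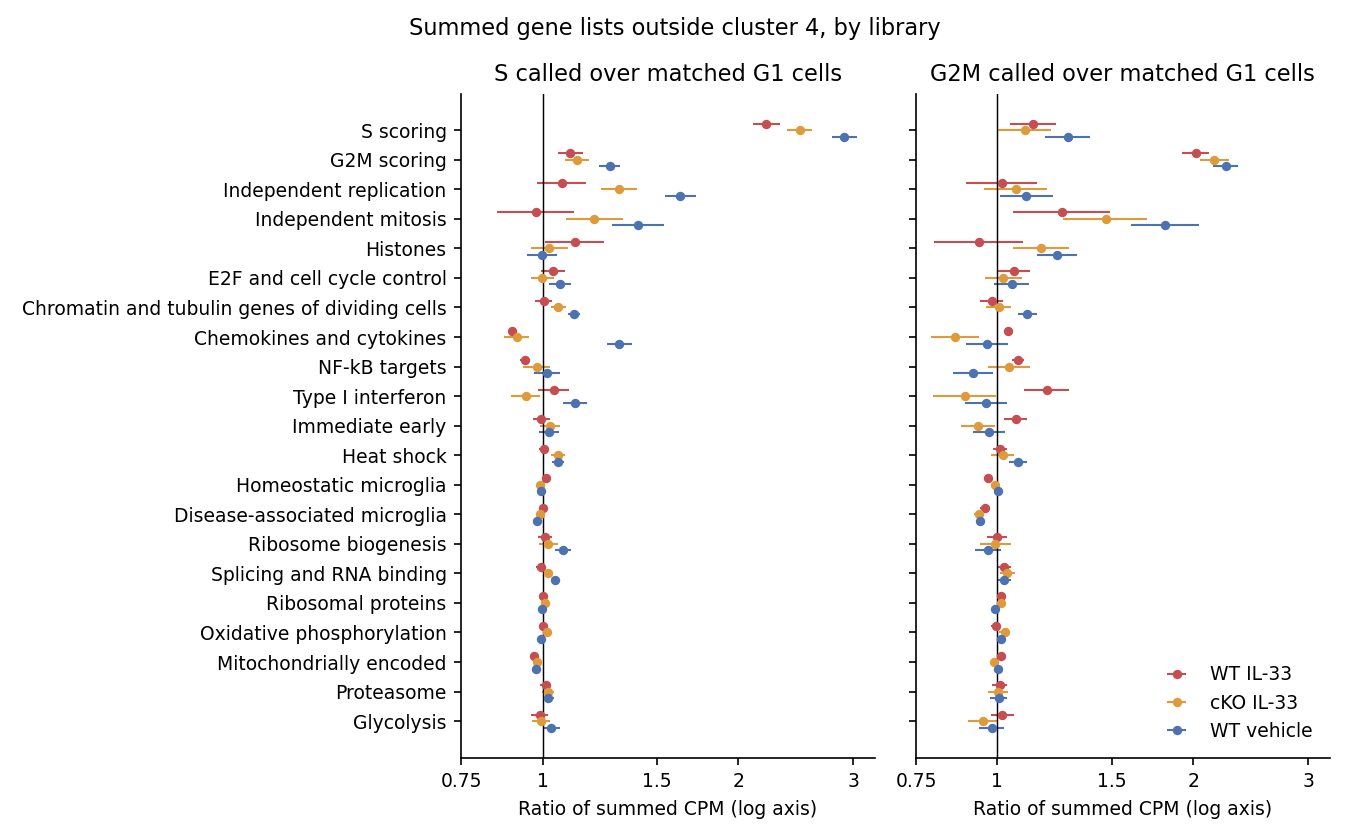
Points are ratios of summed CPM in called over matched G1 cells outside cluster 4 (log axis) for the gene lists, by library, with 95% intervals for counting error, for S-called and for G2M-called cells. The S list is 2.21 to 2.91 times G1 in S-called cells and the G2M list 2.02 to 2.24 times G1 in G2M-called cells, and lists outside the cell cycle lie between 0.861 and 1.31.

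At 50 CPM or more, 8 of 3599 genes (0.222%) were 1.5-fold or more higher in S-called cells and 0 lower. They were Nasp, Pcna, Casp8ap2, Usp1, Rfc2 and Slbp of the S list, Cbx5 of the G2M list, and Mcm3. In G2M-called cells 11 of 3631 (0.303%) were higher and 0 lower, of which 9 are in the G2M list and the others are Stmn1 and the chemokine gene Cxcl10 (1.56, 1.42 to 1.70). Of the 567 Cxcl10 UMIs in G2M-called cells of WT IL-33, 214 were in 1 cell. In cluster 4, 768 of 3927 genes (19.6%) were higher in S-called than in G1 cells and 561 (14.3%) lower. That comparison had 123 S-called and 38 G1 cells, against 1919 and 4544 outside cluster 4. With so few cells, counting error alone takes more genes past 1.5-fold, so these shares cannot be set against those outside cluster 4.

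Among 2911 genes outside the cell cycle lists, ranked in S-called cells by the lowest ratio of the 3 libraries, Ppil4, a cyclophilin-like protein, came first at 1.15 to 1.19. Mtf2, a Polycomb-associated protein, Dbi, which binds acyl-CoA, and Smc3, a cohesin subunit, came next, with lowest ratios of 1.13, 1.11 and 1.11. Ranked from below by the highest ratio of the 3 libraries, Slc7a7, an amino acid transporter, came first at 0.841 to 0.908. In G2M-called cells, Dync1li1, a dynein chain, led 2920 genes at 1.15 to 1.25, before Eed, a Polycomb subunit, and Srsf1, a splicing factor. From below, Dhx15, a splicing helicase, came first by its highest ratio, at 0.840 to 0.850.

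Cytokine and chemokine genes varied in S-called cells of WT IL-33, where 2 of 17 were 1.5-fold or more higher, beside 1.12% of all genes, and 1 lower, beside 0.858%. Neither of the 2 higher genes reached 50 CPM in either phase. The lower gene was Ccl7, which encodes a chemokine, at 97.5, against 147 CPM in matched G1 cells (0.665, 0.584 to 0.755). Il12b, which encodes the shared subunit of IL-12 and IL-23, stood at 992, against 1343 CPM in matched G1 cells (0.738, 0.709 to 0.769), and in G2M-called cells at 1289, against 1339 CPM (0.963, 0.914 to 1.01). The other libraries had 0 Il12b UMIs in called cells. Ccl4 and Ccl2, which encode chemokines, had ratios of 0.858 (0.842 to 0.875) and 0.778 (0.737 to 0.821) in S-called cells. Il1b, which encodes interleukin-1 beta, was level at 1198, against 1204 CPM (0.995, 0.958 to 1.03), and Tnf had a ratio of 0.931 (0.869 to 0.997). In cluster 1 of WT IL-33, cells with an Il12b UMI after thinning were 31.9% of 508 S-called (27.9 to 36.1), 39.8% of 226 G2M-called (33.4 to 46.5) and 38.4% of 1081 G1 cells (35.5 to 41.4). The intervals of S-called and G1 cells overlapped.

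Microglial markers were alike in called and G1 cells. At least 3 of 8 microglial markers were seen in 2669 of the 2670 called and in 4542 of the 4544 G1 cells. All 8 were present, and they summed to between 12909 CPM (WT IL-33) and 20765 CPM (cKO IL-33) in S-called cells, against 12794 and 21007 CPM in their matched G1 cells. Neutrophil, T cell and NK cell markers summed to between 0 and 0.873 CPM in called cells of each library. Markers of some other cell types were present in called and G1 cells alike. In S-called cells over the libraries, astrocyte markers summed to 214, against 222 CPM in matched G1 cells. B cell markers summed to 83.4, against 77.8 CPM, oligodendrocyte markers to 62.1, against 59.9 CPM, and monocyte markers to 34.2, against 33.5 CPM. Border macrophage markers summed to 5.18, against 20 CPM in G2M-called and matched G1 cells of WT IL-33, to 148, against 96.8 CPM in the cKO IL-33 library and to 108, against 68.9 CPM in WT vehicle. Their part in the mitotic sums was not tested. Choroid plexus markers summed to 42.1, against 0.0874 CPM in G2M-called and matched G1 cells of WT vehicle, from 1 of 3 markers. Cells with both Xist and Y-linked UMIs were 79 of 612 S-called, 28 of 269 G2M-called and 196 of 1306 G1 cells in WT IL-33, and at most 6 in a phase of the other libraries. Without such cells the replication ratio of S-called cells was 1.42 and the mitotic ratio of G2M-called cells 1.52. The median share of mitochondrial UMIs was between 2.21% and 2.99% in every phase of each library, and 4 cells had a barcode sequence that another library also held.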

How the data were processed

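Unique molecular identifiers were deposited as raw UMI counts of 20586 genes in 7598 cells, and equalled the deposited total in 100% of cells. The authors' metadata table gives, per the file headers, library, cluster, phase, S and G2M score, sex call and the mitochondrial and ribosomal percent of UMIs. Cell Ranger 5.0, Seurat 4.0.1 and the build GRCm38 are named in the submitters' processing notes. The authors' phase gene lists and filters are not stated in the sources used here, so genes of both Seurat list versions were kept out of the independent lists.

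UMIs were summed by library, cluster and phase and scaled to CPM. G1 UMIs were weighted to the called cells by cluster within a library. Shares have exact Clopper-Pearson intervals, and ratios conditional binomial ones with an effective G1 count, all at 95%. No test was made: each group has 1 library, and the phase comes from the same counts. Log2 ratios used a pseudocount of 1 CPM. Lists took genes at 10 CPM or more in either phase, and counts of genes past 1.5-fold took 50 CPM. Cells were thinned to 2000 UMIs, and rescoring took genes seen in at least 10 cells. Score ranges were chosen after the data were seen. The deposited clusters come from the same cells' counts, so cells rich in division genes can have been placed in cluster 4. No doublet caller was run, and the sources used here do not say whether doublets were removed before deposit. The cells and lists were chosen with earlier results of these data known. Named genes were Mki67, Top2a, Mcm2 to Mcm7 and Pcna, up to 4 extreme members of each list at 50 CPM, the 10 highest and 5 lowest other genes over 3 libraries, the 5 leading genes of each scoring list, Il1rl1 and Il12b. Division genes and any gene outside this rule were named after their values were seen. Alternatives changed scaling, thresholds, thinning, libraries and cells. Python 3.11.15, numpy 2.4.6, scipy 1.17.1, pandas 2.3.3, matplotlib 3.10.9, R 4.3.3 and Seurat 5.3.0 were used, and the ratio was tested on simulated data.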

Additional observations from a re-analysis of the deposited data

Results flagged for a closer look

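Chemokine and cytokine genes lay on opposite sides of G1 between libraries in S-called cells, a difference that was not tested. Their sum was 0.899 of that in matched G1 cells in WT IL-33, 0.913 in the cKO IL-33 library and 1.31 in WT vehicle. In WT vehicle 1 cell held 604 of the 3489 UMIs of the list, and the ratio was 1.09 without it and 0.997 without the 3 cells with the most. In the same library, 304 of 359 Ccl5 UMIs were in 1 cell.

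Type I interferon genes lay on opposite sides of G1 in G2M-called cells, also not tested. Their sum was 1.19 times that of matched G1 cells in WT IL-33, 0.891 in the cKO IL-33 library and 0.960 in WT vehicle. In WT IL-33 the ratio was 1.13 without the cell with the most UMIs of the list and 1.07 without 3 such cells. Only lists that differed from G1 by 1.1-fold or more in both directions were taken, a limit set after the values were seen.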

How the results depend on the processing

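No paired analysis was possible because each group has 1 library. Of the results that answer a comparison, 76 values kept their size under the alternatives and 50 moved.

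With phases recomputed, 31.6% of WT IL-33 and 25.2% of cKO IL-33 cells were called S, against 28.0% and 23.3% as deposited, and with the original list 14.1% of WT IL-33 cells were called G2M, against 12.3%. On thinned cells S calls were 30.0% in WT IL-33 and 27.6% in the cKO IL-33 library (25.5% with the original list). On thinned cells G2M calls were 20.3%, 16.5% and 18.3% in WT IL-33, then cKO IL-33 and then WT vehicle with the updated list, and 21.0%, 18.4% and 20.4% with the original, against 12.3%, 8.58% and 10.6% as deposited. In cells of at most 5000 UMIs, S calls were 25.6% in the cKO IL-33 library and 26.0% in WT vehicle, and G2M calls 13.8%, 11.6% and 13.9% in WT IL-33, then cKO IL-33 and then WT vehicle.

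The share of cells with division UMIs moved with its definition. In WT IL-33 it was 42.3% of S-called and 38.7% of G2M-called cells unthinned, 45.1% and 47.6% at 1 UMI or more, and 2.78% and 2.97% at 3 or more. In cKO IL-33 it was 66.5% and 57.3% unthinned, 57.3% and 56.4% at 1 UMI, and 9.38% and 9.09% at 3. In WT vehicle it was 75.4% and 55.7% unthinned, 68.2% and 50.4% at 1 UMI, and 16.1% and 8.02% at 3.

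The median log2 ratio of replication genes in S-called cells (0.33) was 0.63 at 50 CPM or more and 0.16, 0.43 and 0.65 in WT IL-33, the cKO IL-33 library and WT vehicle alone, and lay between 0.19 and 0.54 when 1 library was left out. That of mitotic genes in G2M-called cells (0.38) was 0.67 at 50 CPM, 0.24 with a pseudocount of 10 CPM, 0.059 without cells that held Mki67 or Top2a, 0.17 on thinned cells, 0.18 without high-scoring cells, 0.26, 0.35 and 0.53 in the libraries alone in the same order, and between 0.39 and 0.54 when 1 library was left out. Genes past 1.5-fold higher in S-called cells (8) were 1 at 100 CPM and 6 to 8 without a library. Those in G2M-called cells (11) were 6 at 100 CPM, 5 at 2-fold and 11 without any 1 library. Genes lower (0 in S and in G2M) were 1 in each on thinned cells, and 0 to 1 in G2M-called cells without a library. In 3 cases the direction turned: Hist1h1b in S-called cells was 0.918 without WT vehicle, within a range of 0.918 to 1.71 without a library, against 1.55 in all, and the median of replication genes in G2M-called cells (0.11) was -0.0078 at 50 CPM and -0.037 in WT IL-33 alone. The causes were not tested.

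With 1 library per group, intervals leave out variation between animals, and library, sex and cluster cannot be told apart. The score bins over 0.1 in WT IL-33 (1 cell) and cKO IL-33 (16 cells), and those over 0.05 in each library (11, 9 and 18 cells), are thin.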
